A study of Mus musculus with 6 samples.

Results

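The genes followed here are 5 feedback and output genes of the ERK pathway, Dusp6, Dusp9, Spry4, Etv4 and Spred2, measured in mouse embryonic stem cells with and without HDAC1. They were chosen by symbol, with their knockout against wild-type differences already known, so those differences are given as a description without a test. The platform annotation assigns 8 probe sets to them, of 12422 tested, and the 5 genes are part of 8251 that had a probe set of their own. Dusp6, Dusp9 and Etv4 have 2 probe sets each, and Spry4 and Spred2 have 1 each.

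The arrays were 1-colour Affymetrix MG U74Av2 arrays, 3 of wild-type cells and 3 of HDAC1 knockout cells, all untreated. HDAC1 removes acetyl groups from histones as a subunit of several corepressor complexes. Per the labels, the cells were derived from wild-type and from HDAC1 knockout embryos, and the series' design text places both in the same litter. The labels call the samples of a genotype biological replicates, without saying whether they were separate lines, clones or cultures, so the spread between arrays may be partly technical. They also allow LIF on gelatin or a feeder layer without LIF and do not assign a sample to either, and the sex of the embryos is not stated.

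Fibroblast growth factor 4, which embryonic stem cells secrete, acts through FGF receptors, the adaptor Grb2, Ras and the kinases Raf and MEK to activate ERK. Active ERK phosphorylates transcription factors, and the resulting programme includes inhibitors of the pathway itself, so that their transcript levels are often read as an output of ERK activity. In mouse embryonic stem cells ERK signalling is known for moving cells out of the naive pluripotent state. Dusp6 and Dusp9 encode dual-specificity phosphatases that dephosphorylate ERK, Spry4 and Spred2 encode inhibitors that act at or above Ras and Raf, and Etv4 encodes a transcription factor of the ETS family, in its PEA3 subgroup.

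The cells carried the markers their label implies, and the knockout was visible in its target. Hdac1 had signals of 2323.4, 2199.7 and 2407.8 in wild-type arrays and 118.3, 110.1 and 197.1 in knockout arrays. All 13 embryonic stem cell markers examined were above the background level, a signal of 116.4 taken from control probe sets for transcripts that mouse cells lack. A genotype is said to be at background where its mean was at or under this level, though single arrays may exceed it. Of these markers 8 were called higher and 0 lower in knockout cells by limma at an adjusted p under 0.05, and their summed signal was 51539 to 55069 in wild-type and 71188 to 73347 in knockout arrays. Of 25 feeder fibroblast markers 5 were called lower and 0 higher, with a summed signal of 18112 to 19077 against 13420 to 13730, while Fap, Postn, Pdgfrb and Lum were at background in both genotypes. In a bulk sample, fewer cells of a type and less RNA per cell cannot be told apart. Primitive endoderm markers summed to 7076 to 7893 and 8530 to 9120, and trophoblast markers to 4907 to 5142 and 4282 to 4899. Of 15 primitive endoderm markers 1 was called higher and 0 lower, and of 10 trophoblast markers 1 higher and 2 lower. Over all genes, 2.7% were called higher and 1.88% lower. Foxa2, Afp and Ttr of the endoderm list, and Cdx2, Eomes and Elf5 of the trophoblast list, were at background in both genotypes. The part that such cells play in the differences below was not tested.

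The 2 ERK phosphatase genes moved in opposite directions, and the other 3 genes had small differences. The bright probe set of Dusp9 was 2.33-fold higher in knockout cells and that of Dusp6 2.16-fold lower. Spred2 was 1.25-fold lower, and Etv4 and Spry4 differed by 1.13-fold and 1.06-fold within overlapping groups. Of the 8 probe sets, 1 was called higher and 1 lower, where 2.25% of all probe sets were called higher, 1.63% lower and 3.88% in either direction. The groups did not overlap for 4 of the 8, where that held for 20.6% of all probe sets. The genes were picked from this contrast, so neither count says anything more about them.

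**Figure D1:**
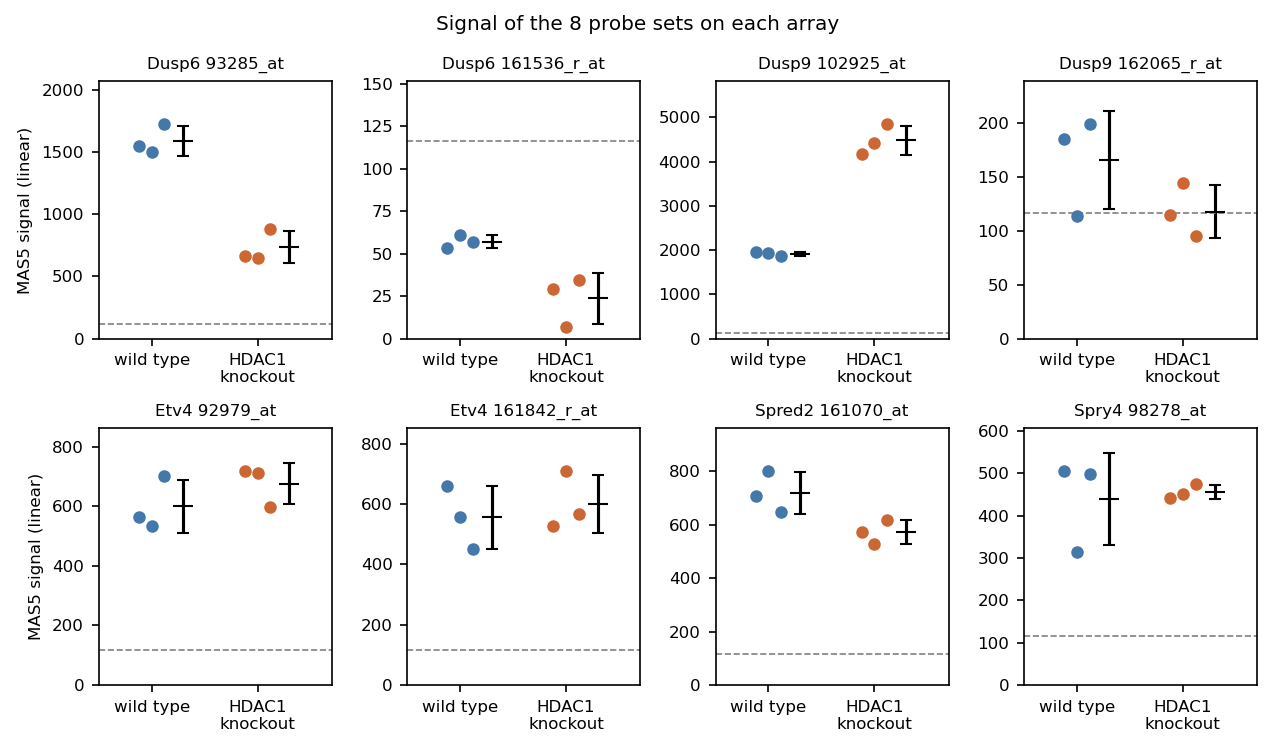
Linear MAS5 signal of each of the 8 probe sets on the 6 arrays, wild type in blue and HDAC1 knockout in orange, each panel on its own scale from 0. Black bars are the mean and SD of 3 arrays and the dashed line is the background level of 116.4. The genotypes are apart for both Dusp6 probe sets (161536_r_at under background), Dusp9 102925_at and Spred2, and overlap for Dusp9 162065_r_at, Etv4 and Spry4.

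Dusp6 encodes MKP-3, a mainly cytoplasmic phosphatase with a preference for ERK, and its transcript is a widely used readout of FGF and ERK signalling. Its bright probe set, 93285_at, had signals of 1546.7, 1497.5 and 1722.6 in wild-type cells and 667.0, 650.6 and 881.1 in knockout cells. The groups were far apart, with the highest knockout array well under the lowest wild-type array, and knockout replicate 3 the highest of its group. The mean signals were 1588.9 ± 118.3 (SD, n = 3) and 732.9 ± 128.6 (SD, n = 3), a log2 difference of -1.11 ± 0.13 (SE). All differences are HDAC1 knockout minus wild type on the scale of log2(signal + 16). Leaving out single arrays moved the Dusp6 difference between -1.25 and -1.03. Of the 5683 other genes above background, 69 had a larger fall.

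The second Dusp6 probe set, 161536_r_at, was below background on all 6 arrays and gives no fold. Its signals were 53.1, 61.1 and 57.1 in wild-type and 29.4, 6.8 and 34.6 in knockout arrays. Every knockout array lay under every wild-type array, at a level where the array does not separate signal from control probe sets. The suffix r marks a probe set for which Affymetrix relaxed its probe selection rules.

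Promoters are shown for Dusp6 and Spred2, the only 2 of these genes whose promoter sequence was at hand. They are also the 2 with lower signal in knockout cells. ETS motifs were searched because Etv4 and its relatives bind them. Each is the RefSeq window of GRCm38.p6 from 250 bases before to 50 bases after the gene's start, on the plus strand, 5′ to 3′. Capitals mark matches to CGGAAG or AGGAAG on either strand, and the matches do not overlap one another.
Dusp6, chr10:99262981-99263280: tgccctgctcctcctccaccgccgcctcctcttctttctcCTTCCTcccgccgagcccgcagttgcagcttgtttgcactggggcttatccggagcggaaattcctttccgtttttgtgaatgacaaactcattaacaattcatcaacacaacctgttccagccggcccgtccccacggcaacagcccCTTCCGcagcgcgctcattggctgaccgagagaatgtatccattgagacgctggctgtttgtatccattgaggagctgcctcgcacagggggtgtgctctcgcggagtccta
Spred2, chr11:19924192-19924491: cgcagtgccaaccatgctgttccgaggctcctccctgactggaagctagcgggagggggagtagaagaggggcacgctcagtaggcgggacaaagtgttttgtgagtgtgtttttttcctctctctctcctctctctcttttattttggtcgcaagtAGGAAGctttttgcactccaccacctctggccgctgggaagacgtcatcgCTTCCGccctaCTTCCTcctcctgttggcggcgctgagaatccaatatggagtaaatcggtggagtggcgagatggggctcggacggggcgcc
The Dusp6 window held 1 match to CGGAAG, its first base 62 bases before the start, and 1 to AGGAAG, 210 bases before it, both on the opposite strand. The Spred2 window held 1 match to CGGAAG, 43 bases before the start, and 2 to AGGAAG, 93 and 32 bases before it. Such matches are common: of 27025 promoters searched, 17.2% held CGGAAG and 35.1% held AGGAAG. Neither window held an exact copy of the cyclic AMP response element TGACGTCA, found in 1.88% of promoters. The Spred2 window holds GACGTCA, without the first T, and such partial copies were not searched. Neither held a CArG box, the motif of serum response factor, found in 1.57%. A match is a run of letters and says nothing of binding. No promoter sequence was at hand for Dusp9, Spry4 or Etv4, so the matches could not be compared with theirs.

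Dusp9 encodes MKP-4, a relative of Dusp6 that also dephosphorylates ERK and is needed in the mouse placenta. Its bright probe set, 102925_at, had signals of 1950.7, 1927.6 and 1866.1 in wild-type cells and 4181.5, 4420.3 and 4843.5 in knockout cells. The wild-type arrays lay within a narrow band, far below the lowest knockout array. The means were 1914.8 ± 43.7 (SD, n = 3) and 4481.8 ± 335.3 (SD, n = 3), with a log2 difference of 1.22 ± 0.08 (SE) that stayed between 1.16 and 1.27 when single arrays were left out. Of 5683 other genes above background, 56 had a larger rise. The spread between replicates was small, with a pooled SD of 0.0789 on the log2 scale against a median of 0.111 for 535 probe sets of like signal, within 1.5-fold of its mean.

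The other Dusp9 probe set, 162065_r_at, did not show this rise. Its signals were 185.1, 113.7 and 199.0 in wild-type and 114.5, 144.4 and 94.9 in knockout arrays, close to the background level. The groups overlapped, with 1 wild-type and 2 knockout arrays at background, and the log2 difference was -0.42 ± 0.36 (SE). With both probe sets averaged, the difference of Dusp9 was 0.40 in place of 1.22. The direction for Dusp9 thus rests on the bright probe set, and the files do not show which transcripts either probe set detects.

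Both phosphatase genes were also compared within each array, where a factor common to the array largely cancels. The log2(signal + 16) of Dusp9 minus that of Dusp6, for the bright probe sets, was 0.33, 0.36 and 0.11 in wild-type arrays and 2.62, 2.73 and 2.44 in knockout arrays. Every knockout array was far above every wild-type array. The shift was 2.33, a 5.02-fold change of the ratio. It follows from the differences of the 2 genes already given and adds no separate evidence. As probes differ in brightness, the ratio shows unequal change of the 2 genes and not which transcript was more abundant.

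**Figure D2:**
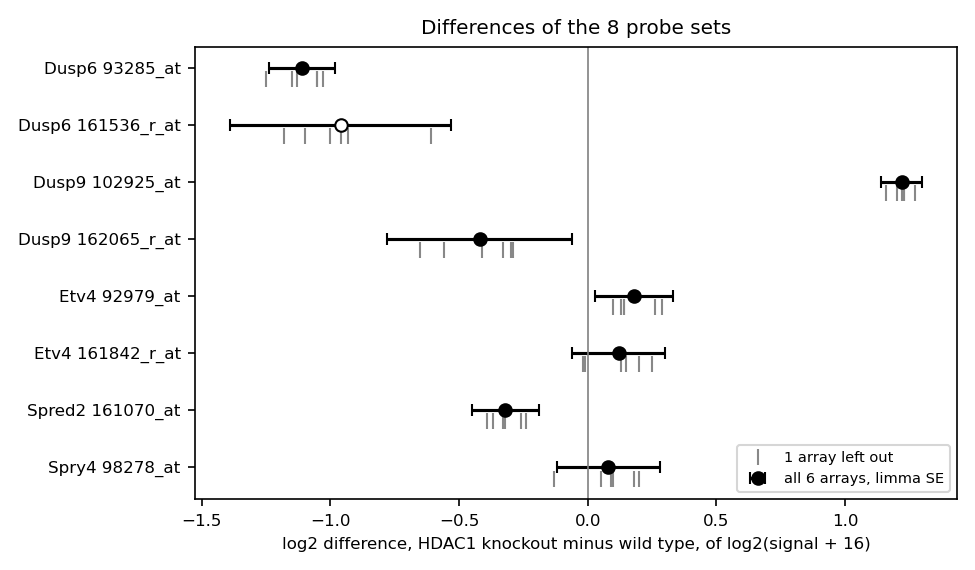
Log2 difference, HDAC1 knockout minus wild type, of log2(signal + 16) for each of the 8 probe sets, with limma's SE over all 6 arrays. Grey ticks are the differences with 1 array left out, and the open point is a probe set at background in both genotypes. Dusp6 93285_at stays between -1.25 and -1.03 and Dusp9 102925_at between 1.16 and 1.27, while ticks of Spry4 and of Etv4 161842_r_at fall on both sides of 0.

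Dusp9 lies on the X chromosome, and X-linked genes were higher in the same arrays. Of 172 other X-linked genes above background, 77.9% had a difference above 0 with a median of 0.35, and by limma 29.1% were called higher and 2.91% lower. Of 5502 autosomal genes the median was -0.03, with 3.04% called higher and 2.62% lower. The rise of Dusp9 was 0.87 above the X-linked median, 1.82-fold, and among X-linked genes measured above background in both genotypes, Slc25a5, Rhox5, Fmr1nb, Bex1, Wdr45 and Fhl1 had a larger difference. Mtmr1 and Pnck, at background in wild-type cells, were at least 1.73-fold and 1.58-fold higher without a call (adjusted p = 0.181 and 0.0745 by limma), and have no place in that order. Eif2s3y on the Y chromosome had signals of 362.0, 418.4 and 357.6 in wild-type arrays and 14.1, 24.3 and 59.7, all at background, in knockout arrays. The other measured Y-linked genes, Kdm5d, Rhoay-ps3, Uba1y, Tspy-ps, Uty and Sry, were at background by their means in both genotypes and give no direction. For Uty, wild type replicate 1 was above the level, at 126.6. Xist, the RNA that silences an X chromosome in differentiated female cells, was at background on all 6 arrays. Loss of HDAC1 and a difference in sex chromosomes cannot be told apart with these samples.

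**Figure D3:**
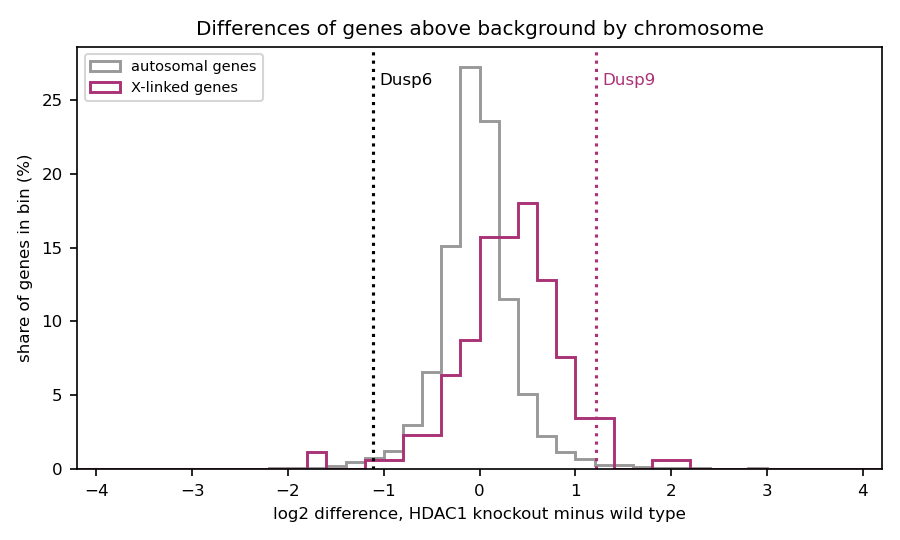
Share of genes above background, in percent, by their log2 difference in bins of 0.2. Autosomal genes are grey (5502 before Dusp6 was left out) and the 172 X-linked genes other than Dusp9 are purple. Dotted lines mark Dusp6 at -1.11 and Dusp9 at 1.22. The X-linked distribution lies to the right of the autosomal one, and Dusp9 lies in its right tail.

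The neighbours of Dusp9 on the X chromosome, by start position among measured genes, went in both directions. This look at the nearest 3 genes on either side was chosen after the values of the 5 genes had been seen. Slc6a8, the creatine transporter gene, rose 2.19-fold from 490.6 ± 45.6 to 1091.1 ± 95.4 (SD, n = 3 each, adjusted p = 0.000576 by limma). Bgn, which encodes the matrix proteoglycan biglycan and is the neighbour on the other side, fell 1.64-fold from 4697.5 ± 1016.1 to 2827.6 ± 156.9 (adjusted p = 0.013 by limma). Pnck had at least a 1.58-fold difference from background (adjusted p = 0.0745 by limma), Bcap31 and Zfp275 had differences of 0.29 and 0.78 without a call, and Zfp92 was at background. None of the 6 nearest measured genes of Dusp6 was called by limma. Of these, Galnt4, Kitl and Slc6a15 had differences of -0.33, -0.26 and -0.33, and Kera, Epyc and Myf5 were at background. The 18 neighbours of Spry4, Etv4 and Spred2 had no call either, the smallest adjusted p being 0.0922 for Gnpda1 near Spry4.

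Spred2, whose product restrains the activation of Ras and Raf, had a small and evenly spread difference. Its signals were 709.1, 802.1 and 648.3 in wild-type and 574.1, 527.6 and 617.3 in knockout arrays. Every knockout array lay under every wild-type array, by a narrow margin between wild type replicate 3 and knockout replicate 3. The means were 719.8 ± 77.5 and 573.0 ± 44.9 (SD, n = 3 each), and the log2 difference was -0.32 ± 0.13 (SE), between -0.39 and -0.24 with single arrays left out. Of other genes above background, 31.5% had a larger difference in either direction, against 1.92% for Dusp9 and 2.43% for Dusp6.

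Etv4, the PEA3 factor that is both a target and an effector of FGF signalling, had small differences on both of its probe sets. Probe set 92979_at had signals of 564.4, 533.6 and 701.2 in wild-type and 719.4, 712.2 and 598.9 in knockout arrays. Probe set 161842_r_at had 660.6, 555.5 and 449.2 in wild-type and 526.9, 709.5 and 566.6 in knockout arrays. For both, the groups overlapped widely. Wild type replicate 3 was the highest wild-type array on 92979_at and the lowest on 161842_r_at, while HDAC1 knockout replicate 2 was high on both. The log2 differences were 0.18 ± 0.15 and 0.12 ± 0.18 (SE). That of 161842_r_at was -0.02 without wild type replicate 3 and -0.01 without HDAC1 knockout replicate 2.

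Spry4, a member of the Sprouty family of receptor tyrosine kinase inhibitors, had signals of 505.6, 314.2 and 497.1 in wild-type and 441.8, 450.8 and 474.3 in knockout arrays. The knockout arrays lay close together and within the range of the wild-type arrays, which was set by the low value of wild type replicate 2. The log2 difference was 0.08 ± 0.20 (SE), and without that array it was -0.13. The SD of the wild-type signals, 108.1, was larger than the difference between the means of 439.0 and 455.6. No difference of Spry4 beyond the spread between replicates was detectable.

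The replicate spread sets how firmly each gene can be read. On the log2 scale the pooled SD was 0.184 for Dusp6 93285_at, 0.132 for Spred2, 0.176 and 0.246 for the Etv4 probe sets and 0.267 for Spry4. The matching medians of probe sets of like signal were 0.148, 0.182, 0.184, 0.192 and 0.217. Dusp6, Spry4 and Etv4 161842_r_at were thus noisier than the median probe set of their brightness, and Spred2, Etv4 92979_at and Dusp9 were quieter.

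Genes whose profile over the 6 arrays was most like that of each gene were taken by Pearson correlation of log2 signals among 5679 genes above background. With 6 arrays in 2 groups, high correlations are common: 148 genes exceeded 0.95 with Dusp9, 79 with Dusp6, 31 with Spred2, 15 with Spry4 and 12 with Etv4. The nearest to Dusp9 were the phosphoinositide phosphatase gene Mtmr7 (0.999) and the pluripotency factor gene Nanog (0.998). Nanog had 5460.7, 5549.2 and 5173.0 in wild-type and 10833.1, 11616.2 and 11680.0 in knockout arrays, a ratio of 2.11 between the genotypes. The nearest to Dusp6 were Fbln2 (0.994), which is also on the feeder fibroblast marker list, and Mtm1 (0.99). Fbln2 had 3578.4 ± 101.7 in wild-type and 2565.4 ± 217.3 in knockout arrays (SD, n = 3 each). As these genes were chosen for their profile, their differences are given without a test. Those of Spred2 were Eloc (0.993) and Ccng1 (0.992), those of Spry4 Ddx27 (0.992) and Pak4 (0.991), and those of Etv4 Tax1bp3 (0.994) and Sftpc (0.987).

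The rest of the pathway held 5 called genes, of moderate size and in both directions, and each lost its call with eBayes without a trend. Among 21 measured FGF ligand and receptor genes, only 7 had a mean signal above background, against 5684 of all 8251 genes. Of the 21, 1 was called higher and 0 lower, with a median difference of -0.04 as for all genes. Of all genes, 4.58% were called, 2.7% higher and 1.88% lower. The gene that rose was Fgf4, the main autocrine ligand, with signals of 2100.3, 2480.8 and 2767.8 in wild-type and 5091.0, 3798.1 and 3749.5 in knockout arrays. Fgf4 is also among the embryonic stem cell markers called higher, so both counts hold the same call. All knockout arrays exceeded all wild-type arrays, by 1.71-fold on average (log2 difference 0.77 ± 0.13 SE, adjusted p = 0.0093 by limma). Fgf17 had 241.1 ± 19.2 and 161.7 ± 12.4 without a call (adjusted p = 0.379 by limma), and Fgfr4 and Fgf8 were at background. Of the receptors, chosen after their values were seen, Fgfr1, Fgfr2 and Fgfr3 had differences of -0.19, -0.04 and 0.04 without a call.

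Of 20 measured genes from the receptor adaptors to ERK and its substrates, 1 was called higher and 1 lower, with a median of -0.18. Nras, a Ras GTPase, had signals of 2247.4, 2543.0 and 2762.5 in wild-type and 1721.2, 1584.1 and 1771.3 in knockout arrays, and fell 1.48-fold (adjusted p = 0.00869 by limma). Without HDAC1 knockout replicate 2 the call ended (adjusted p = 0.0567 by limma). Its second probe set had a difference of -0.50 that just missed the threshold (adjusted p = 0.0627). Grb2, the adaptor between receptors and Ras, rose 1.51-fold from 652.3 ± 60.2 to 997.5 ± 172.0 (adjusted p = 0.0494 by limma), a call that ended in 5 of the 6 fits with 1 array left out. Shc1, Mknk1 and Gab1 had differences of -0.34, -0.92 and -0.25 without a call (adjusted p = 0.113, 0.194 and 0.24 by limma), each without overlap of the groups. Second probe sets of Shc1 and Gab1 had differences of -0.33 and -0.02, with overlap.

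Of 8 other measured MAPK phosphatase genes, 0 were called higher and 1 lower by limma, with a median of 0.12, and 2 had an unadjusted p under 0.05, as did 1411 of all 8251 genes. The gene called was Ptprr, a tyrosine phosphatase that binds ERK, which lies on chromosome 10 like Dusp6. Its signals were 510.1, 478.7 and 735.8 in wild-type and 270.7, 247.3 and 370.1 in knockout arrays, 1.89-fold lower (adjusted p = 0.0471 by limma). The call ended in 5 of the 6 fits with 1 array left out. Dusp1, an immediate early phosphatase gene, had a difference of 0.27 and Dusp16 one of 0.44 (adjusted p = 0.263 and 0.497 by limma), and Dusp8 was at background. Second probe sets of Ptprr, Dusp16 and Dusp8 were at background in both genotypes and give no direction. None of the 7 listed relatives Spry1, Spry2, Spry3, Spred1, Spred3, Etv1 and Etv5 had a probe set of its own, and they were not analysed here.

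Of 21 other measured ERK targets and effectors, 0 were called higher and 1 lower by limma, with a median of -0.20 against -0.04 for all genes. An unadjusted limma p under 0.05 held for 7 of the 21, and for 1411 of all 8251 genes. The difference was above 0 for 6 of the 21 and below 0 for 15, against 3735 and 4516 of all genes. Mcl1, an anti-apoptotic BCL2 family gene, fell 1.36-fold from 2493.1 ± 159.9 to 1825.5 ± 63.2 (adjusted p = 0.0143 by limma), without a call in 4 of the 6 fits with 1 array left out. The receptor gene Epha2 missed the threshold with 1729.2 ± 239.8 and 1225.2 ± 109.0 (adjusted p = 0.0511 by limma). The AP-1 gene Fosl1 had a difference of -0.66 (adjusted p = 0.143), and Ets1, an ETS factor gene, was at least 1.51-fold lower with 2 of 3 knockout arrays at background (adjusted p = 0.166). A second probe set of Ets1 was at background in both genotypes. Egr1, Myc and Ccnd1, chosen after their values were seen, had differences of -0.67, -0.55 and -0.20 without a call, and Fos was at background. The members above 0, chosen likewise, included the immediate early genes Ier2, Fosb and Junb and the ETS factor gene Elk1, with differences of 0.30, 0.38, 0.08 and 0.19 without a call.

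**Figure D4:**
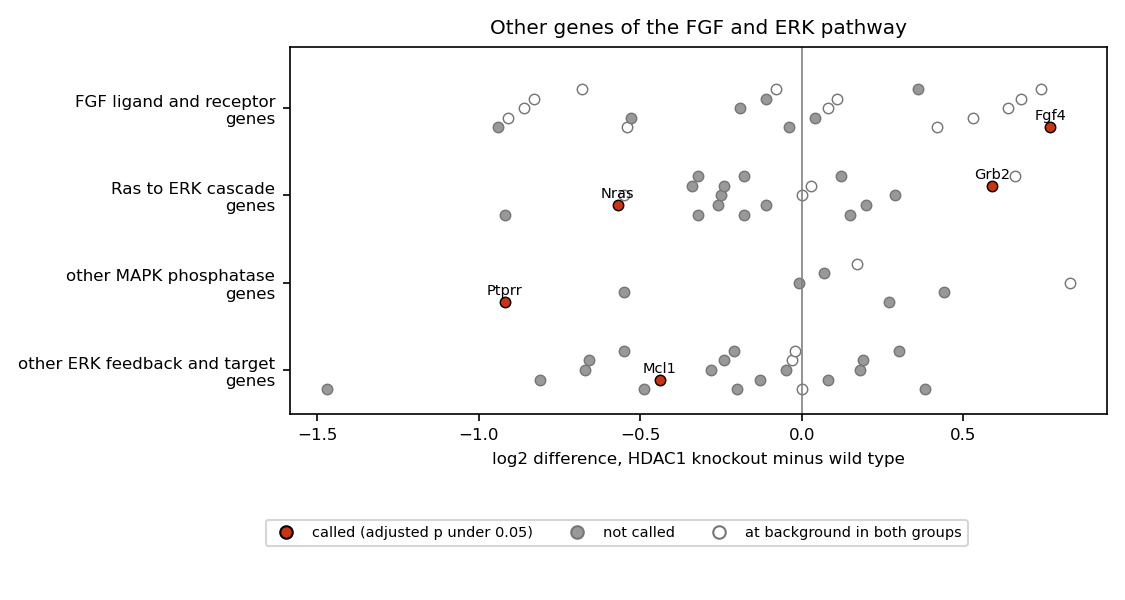
Log2 difference, HDAC1 knockout minus wild type, of each measured gene of 4 lists of the FGF and ERK pathway (the 5 genes described above are not among them), spread vertically for legibility. Red points were called by limma at an adjusted p under 0.05, grey points were not, and open points were at background in both genotypes. The 5 called genes are Fgf4 and Grb2 on the right and Nras, Ptprr and Mcl1 on the left.

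In the same arrays the RNA quality control moved slightly with genotype. The 3′ to 5′ signal ratio of beta-actin was 1.15 to 1.21 in wild-type arrays and 1.04 to 1.09 in knockout arrays, and that of Gapdh was 0.797 to 0.809 and 0.769 to 0.804. Its part in the differences of Dusp6, Dusp9 and Spred2 was not tested.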

How the data were processed

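The authors' deposited values were linear MAS5 signal intensity per probe set, per the submitters' processing notes. The software version and detection calls were not given in the sources used here. Trimmed means (2% at each end) were 500.3 on all 6 arrays, so the authors' intensities were already on a common scale and were used as deposited. Array medians were 186.6 to 206.8. The scanner header files are identical and carry no batch information.

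The genes and lists were chosen with earlier results of these data known. Of 12488 probe sets, 66 Affymetrix controls were left out. Symbols came from the platform annotation, updated by identifier through a RefSeq table (GRCm38.p6). Of 12422 probe sets, 10833 had 1 symbol, 396 several and 1193 none, and 10817 of the 10833 matched by identifier. Probe sets with several symbols named no gene, and each gene was represented by its brightest probe set on average.

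R 4.3.3 and limma 3.58.1 were used to fit log2(signal + 16) to genotype without covariates, with lmFit and a trended eBayes. P-values were adjusted by Benjamini-Hochberg over all 12422 probe sets and genes were called under 0.05. Folds on this scale understate changes of dim probe sets. The background level is the 95th percentile of the signals of 19 control probe sets, 116.4, and 39.2% of probe sets had a mean at or under it. Groups under it give lower bounds. Named genes of a list are all called genes and the next 3 by p. Other genes are said to be chosen later. The number of arrays limits the precision. The fit was tested on simulated data.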

Additional observations from a re-analysis of the deposited data

How the results depend on the processing

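Pseudocounts of 1 and 64, quantile normalization and median centring could move a log2 difference. Under them those of Dusp6 93285_at, Spred2, Etv4 and Spry4 moved by less than 1 SD between replicates. Dusp9 102925_at did so too, and moved to 0.40 when both its probe sets were averaged. Filters on the dimmest 25% and 50% of probe sets, eBayes without a trend and the replicate block cannot move a difference, only its SE and p. The dim Dusp6 161536_r_at went to -1.51 with a pseudocount of 1 and -0.48 with 64. With 1 array left out, it lay between -1.18 and -0.61, Dusp9 162065_r_at between -0.65 and -0.29, Etv4 92979_at between 0.10 and 0.29, Etv4 161842_r_at between -0.02 and 0.25, and Spry4 between -0.13 and 0.20. Of the 8 probe sets 2 were called with any array left out, and 1 (Dusp9 102925_at) without a trend.

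Over the whole table, 279 probe sets were called higher and 203 lower, 57.9% of calls being higher. Median centring gave 344 and 129 (72.7%), eBayes without a trend 82 and 50, a threshold of 0.1 gave 396 and 311, and leaving out arrays 150 to 246 and 98 to 174. With the replicate block there were 200 higher and 119 lower. Same-numbered arrays did not deviate together (correlations of -0.0504, -0.0106 and -0.0826 among probe sets above background). These values gave no sign that the numbers pair the samples, and they cannot exclude it.

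The list counts rest on 5 calls. Without a trend all 5 ended, giving 0 for each list. Grb2 lost its call (0 higher) with pseudocounts of 1 and 64, quantile normalization and the replicate block, and Ptprr (0 lower) with a pseudocount of 64, quantile normalization, median centring and all probe sets averaged. Mcl1 lost its call (0 lower) with median centring and the replicate block. The count of ERK targets called lower was 2 with quantile normalization, either filter on dim probe sets, averaged probe sets or a threshold of 0.1, as Epha2 joined. The replicate block ended no call but those of Grb2 and Mcl1 among the named genes. With 1 array left out, the FGF list had 1 higher and 0 lower each time, the cascade list 0 to 1 in each direction, the phosphatase list 0 to 1 lower and the target list 0 to 1 lower. Nras lost its call (adjusted p = 0.0567 by limma) without HDAC1 knockout replicate 2. Grb2 kept its call only without HDAC1 knockout replicate 1 and Ptprr only without HDAC1 knockout replicate 3, and Mcl1 lost its call without wild type replicates 1 and 2 and HDAC1 knockout replicates 1 and 2. No setting reversed the sign of Fgf4, Nras, Grb2, Ptprr or Mcl1. The cause of these losses was not tested. Detection calls were not used, and 3 arrays per genotype limit what can be detected.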
